A study of Homo sapiens with 4 samples.

Results

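A set of 59 genes spread along chromosome 8 was followed through a knockdown of PSME4 in A549 cells, a lung carcinoma epithelial line. The genes were chosen by location, from MCPH1 near the tip of the short arm (chromosome 8, 6406627 to 6648508) to PUF60 near the end of the long arm, and most of them serve housekeeping or growth functions. They were picked when values of the same knockdown comparison were already known for this chromosome, so counts and medians over them describe these libraries and support nothing further. The 59 genes are rows of a table of 15037 genes, and all 59 were among the 13497 genes tested. They fall into 24 on the short arm, 30 on the long arm below 130 Mb (the proximal long arm here) and 5 from 130 Mb onward (the distal long arm, from ASAP1).

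PSME4 encodes the proteasome activator PA200, and the study asked how its depletion changes mRNA levels. The control cells are labelled RFP KD, a knockdown that serves as the control, and the other group PSME4 KD. Both groups were A549 cells grown in DMEM, with 2 polyadenylated RNA libraries each. The labels name neither the knockdown reagent nor its duration. Separate cultures within a group are not named in the labels either; the p-values here therefore reflect library-to-library spread alone, and that spread may be technical.

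Genes on 1 chromosome share no common task, but they share a template: where the number of copies of a chromosome arm differs between cell populations, the RNA of many neighbouring genes differs with it in a graded way. Copies were not measured here, and RNA levels from bulk cultures cannot tell apart fewer cells expressing a gene and less RNA per cell. The members include subunits of large complexes such as Integrator, eIF3 and cohesin, whose other subunits are encoded on other chromosomes. MYC, the growth-promoting transcription factor that is frequently amplified in carcinomas, lies on the proximal long arm near its boundary with the distal part.

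Depth was 11766371 and 11769392 counts in the control libraries and 15208588 and 14845701 counts in the knockdown libraries. Depth thus went with the group, and its part in the values cannot be told apart from that of the knockdown. PSME4 itself was at 158 and 180 CPM (read counts scaled to library size) in the control libraries and at 75.3 and 85.1 CPM in the knockdown libraries, a log2 fold change of -1.08 (SE 0.20, edgeR adjusted p = 0.000855). Of 7 A549 and epithelial markers, all 7 were detected in every library, with a summed level of 9250.5 to 10601 CPM in control and 11276 to 12719 CPM in knockdown libraries. Of 11 markers of blood, endothelial, stromal and muscle cells, 4 were in the table, and their summed level was 62.3 to 66.5 CPM in control and 79.8 to 88.5 CPM in knockdown libraries. The fibroblast collagen COL1A1 accounted for a part of that gap, at a log2 fold change of 0.73 (SE 0.24, edgeR adjusted p = 0.0479). A part of either gene in the values of the chromosome 8 genes was not tested.

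Of the 59 members, 48 had a log2 fold change of PSME4 KD over control KD below 0, with a median of -0.41, which is 1.32-fold lower. At an edgeR adjusted p under 0.05 over all tested genes, 18 members were lower and 0 were higher, and at an unadjusted p under 0.05 these counts were 27 and 1. Over all tested genes, 6.00% were lower and 4.56% higher by the same rule, and the median log2 fold change was -0.0021. DESeq2 gave 18 lower and 0 higher members, and limma voom gave 17 and 0. Every knockdown library lay below both control libraries for 37 members and above both for 5 members, against 28.4% and 26.7% of all tested genes in each direction. In the authors' deposited table, 14 members were lower with an adjusted p under 0.05, and 0 passed the further adjusted p given there.

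**Figure D1:**
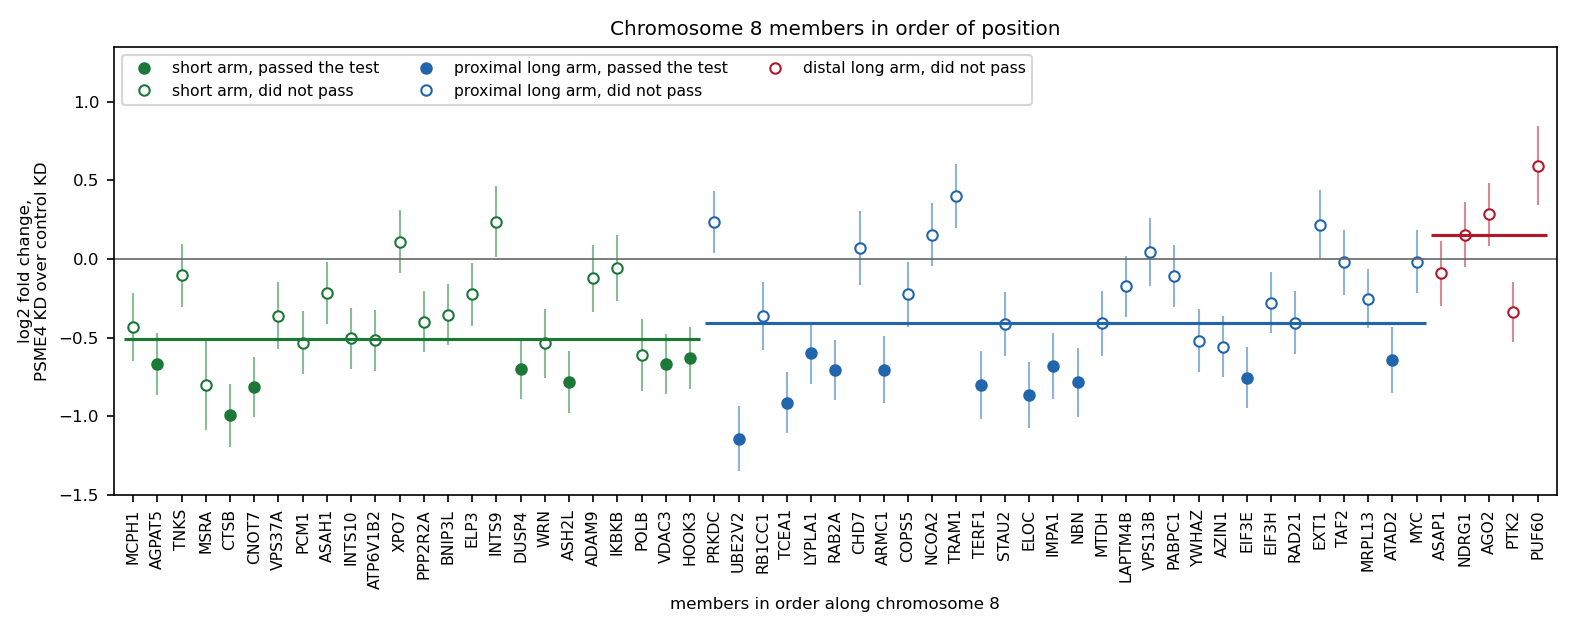
Log2 fold change of PSME4 KD over control KD (vertical axis, error bars 1 SE from edgeR) for the 59 members in order along chromosome 8 (horizontal axis), coloured by segment, with filled points for those past the adjusted p threshold and horizontal lines at the segment medians. Most points on the short arm and the proximal long arm lie below 0, with medians of -0.51 and -0.41, while the 5 distal points lie on both sides of 0 with a median of 0.16.

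Members with roles in genome maintenance had the lowest median of the 5 role groups, -0.57 over 10 genes, with 9 below 0 and 4 called lower. With correction for GC content the median was -0.34, and 2 were called lower. The shares of all tested genes called lower, 6.00% as fitted and 5.18% with the correction, stand beside the counts of all 5 groups. UBE2V2, a partner of the ubiquitin-conjugating enzyme UBC13 in building lysine-63-linked chains, was at 126 and 157 CPM in control and at 74.2 and 53.9 CPM in knockdown libraries. Its log2 fold change of -1.14 (SE 0.21) was the lowest among all 59 members as fitted; with correction for GC content it was -0.78, behind CTSB, ELOC, ASH2L and DUSP4. No knockdown library reached the lower control library. NBN, the nibrin subunit of the MRE11 complex that senses double-strand breaks, was at 133 and 232 CPM against 118 and 94.0 CPM, a log2 fold change of -0.79 (SE 0.22). The NBN groups did not overlap, but its control libraries lay farther apart than its knockdown libraries. TERF1, the shelterin protein that binds double-stranded telomere repeats, was at 40.2 and 45 CPM in control and 27.5 and 21.3 CPM in knockdown libraries, a log2 fold change of -0.80 (SE 0.22). ATAD2, a bromodomain ATPase that binds acetylated histones, was at 107 and 157 CPM against 92.2 and 76.9 CPM, a log2 fold change of -0.64 (SE 0.21). In both of these genes every control library lay above every knockdown library.

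The other genome maintenance genes did not pass the threshold. The repair polymerase POLB had a log2 fold change of -0.61, the RecQ helicase WRN -0.54, the condensation regulator MCPH1 -0.43 and the cohesin subunit RAD21 -0.41, each with groups that did not overlap. TNKS, a poly-ADP-ribose polymerase that acts on TERF1, was at -0.10 with overlapping groups. PRKDC, the catalytic subunit of the DNA-dependent protein kinase, was at 302 and 299 CPM in control and 307 and 402 CPM in knockdown libraries. Its log2 fold change of 0.24 (SE 0.20) was the only one above 0 among these 10 genes as fitted (TNKS moved to 0.02 with GC correction) and rested mainly on the second knockdown library. PRKDC and UBE2V2 are neighbours, starting at 47.8 and 48.0 Mb, and stood at opposite ends of this group.

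Among the 10 members that act in transcription and on chromatin, 7 were below 0, 3 were called lower, and the median was -0.12. With GC correction the median was -0.22, and 3 were called lower. TCEA1, the elongation factor TFIIS that rescues stalled RNA polymerase II, was at 167 and 171 CPM in control and 94.9 and 84.2 CPM in knockdown libraries, a log2 fold change of -0.92 (SE 0.19). ELOC, which encodes elongin C of elongation complexes and cullin ubiquitin ligases, was at 356 and 322 CPM against 226 and 145 CPM, a log2 fold change of -0.87 (SE 0.21). ASH2L, a shared subunit of the COMPASS histone H3 lysine-4 methyltransferases, was at 90.1 and 81.3 CPM against 49.8 and 49.8 CPM, a log2 fold change of -0.78 (SE 0.20). In all 3 genes the knockdown libraries lay well below the control libraries.

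The remaining members of this class were closer to 0. The Integrator subunits INTS10 and INTS9, parts of the complex that cleaves nascent transcripts, had log2 fold changes of -0.51 and 0.24. The INTS9 value was the highest among short arm members as fitted, though not with GC correction, where it was 0.09. INTS9 was at 18.3 and 21.6 CPM in control and 21.4 and 25.7 CPM in knockdown libraries, and its groups overlapped. The Elongator acetyltransferase subunit ELP3 was at -0.23, the TFIID subunit TAF2 at -0.02, the nucleosome remodeller CHD7 at 0.07 and the nuclear receptor coactivator NCOA2 at 0.16. MYC was at 168 and 221 CPM in control and 211 and 174 CPM in knockdown libraries. Its groups overlapped fully, and its log2 fold change was -0.02 (SE 0.20).

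Of the 8 members acting in RNA metabolism and translation, 6 were below 0 and 2 were called lower, with a median of -0.27. With GC correction the median was -0.08, and 0 were called lower. The order of this class and the transcription and chromatin class thus reversed with the correction. CNOT7, a deadenylase of the CCR4-NOT complex that shortens poly(A) tails, was at 207 and 235 CPM in control and 128 and 123 CPM in knockdown libraries, a log2 fold change of -0.82 (SE 0.19). EIF3E, a subunit of the initiation factor that loads mRNA on the small ribosomal subunit, was at 614 and 598 CPM against 389 and 330 CPM, a log2 fold change of -0.75 (SE 0.19). Neither gene had overlapping groups. EIF3H, a subunit of the same factor, was at -0.28, the RNA transport protein STAU2 at -0.41 and the mitochondrial ribosomal protein MRPL13 at -0.25, none of them past the threshold.

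PABPC1, the cytoplasmic poly(A)-binding protein, was at 1814 and 1961 CPM in control and 1825 and 1672 CPM in knockdown libraries, a log2 fold change of -0.11 with overlapping groups. Its reads can be shared with processed copies elsewhere in the genome, as can those of YWHAZ and VDAC3, so these counts are less certain. The distal pair, the small-RNA effector AGO2 and the splicing factor PUF60, were at 0.28 and 0.59. PUF60 had the highest log2 fold change of all members as fitted (0.37 with GC correction, below TRAM1), but its libraries were at 41.6 and 31.4 CPM in control and 75.1 and 35.1 CPM in the knockdown. A single knockdown library thus stood above the other 3, the groups overlapped, and the gene did not pass the threshold.

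The 13 members of lysosome, autophagy and membrane traffic had a median of -0.36, with 10 below 0 and 3 called lower. With GC correction the median was -0.12, with 1 called lower and 1 called higher. CTSB, the lysosomal cysteine protease cathepsin B, was at 674 and 500 CPM in control and 283 and 306 CPM in knockdown libraries. Its log2 fold change of -0.99 (SE 0.20) was the lowest among short arm members, and even the lower control library stood clear of both knockdown libraries. RAB2A, a small GTPase of traffic between the endoplasmic reticulum and the Golgi, was at 245 and 250 CPM against 160 and 143 CPM, a log2 fold change of -0.71 (SE 0.19). HOOK3, an adaptor that links cargo to dynein, was at 94.4 and 83.1 CPM against 62.1 and 52.6 CPM, a log2 fold change of -0.63 (SE 0.20). The groups overlapped in neither of these genes.

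Lower values that did not pass were those of the centriolar satellite scaffold PCM1 (-0.53), the V-ATPase subunit ATP6V1B2 (-0.52), the ESCRT-I subunit VPS37A (-0.36), the autophagy initiation scaffold RB1CC1 (-0.36) and the mitophagy receptor BNIP3L (-0.35). Acid ceramidase ASAH1 was at -0.22, the lysosomal membrane protein LAPTM4B at -0.17, the lipid transfer protein VPS13B at 0.04 and the nuclear transport receptor XPO7 at 0.11. TRAM1, a component of the protein translocation channel of the endoplasmic reticulum, was at 1375 and 1717 CPM in control and 2028 and 2054 CPM in knockdown libraries. Its log2 fold change of 0.40 (SE 0.20) was the highest among proximal long arm members. Its groups did not overlap, and it did not pass the threshold as fitted.

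The largest class, 18 members of signalling, growth and metabolism, had 16 genes below 0, 6 called lower and a median of -0.46. With GC correction the median was -0.29, and 2 were called lower. DUSP4, a nuclear phosphatase of MAP kinases, was at 229 and 215 CPM in control and 128 and 145 CPM in knockdown libraries, a log2 fold change of -0.70 (SE 0.19). VDAC3, a channel of the outer mitochondrial membrane, was at 294 and 256 CPM against 174 and 172 CPM, a log2 fold change of -0.67 (SE 0.19). AGPAT5, an acyltransferase of phosphatidic acid synthesis, was at 84.0 and 90.3 CPM against 51.6 and 58.1 CPM, a log2 fold change of -0.67 (SE 0.20). These are short arm genes, and within each the libraries of a group lay close together and apart from the other group.

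The called genes of this class on the proximal long arm had a wider spread in control. ARMC1, a mitochondrial armadillo-repeat protein, was at 126 and 191 CPM in control and 109 and 85.2 CPM in knockdown libraries, a log2 fold change of -0.71 (SE 0.21). IMPA1, the inositol monophosphatase that is inhibited by lithium, was at 68.7 and 99.0 CPM against 55.6 and 48.9 CPM, a log2 fold change of -0.68 (SE 0.21). LYPLA1, a thioesterase that removes palmitate from proteins, was at 237 and 306 CPM against 193 and 166 CPM, a log2 fold change of -0.60 (SE 0.20). In all 3, the second control library was the highest of the 4, and the groups did not overlap.

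The methionine sulfoxide reductase MSRA had a lower point value, -0.80, than any called gene of this class, but with levels of only 4.99 to 9.69 CPM and an SE of 0.29 it did not pass. The antizyme inhibitor AZIN1 (-0.56), the 14-3-3 protein YWHAZ (-0.52), MTDH, also named metadherin (-0.41), and the phosphatase 2A regulatory subunit PPP2R2A (-0.40) were also below 0 with groups that did not overlap. The COP9 signalosome protease COPS5 was at -0.23, the membrane protease ADAM9 at -0.12, the NF-kappaB pathway kinase IKBKB at -0.06 and the heparan sulfate polymerase EXT1 at 0.22. Of the distal genes, the focal adhesion kinase PTK2 was at 291 and 317 CPM in control and 254 and 227 CPM in knockdown libraries, a log2 fold change of -0.34 (SE 0.19) without overlap of the groups. The Arf GTPase activator ASAP1 was at -0.09 and the stress-responsive NDRG1 at 0.16.

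**Figure D2:**
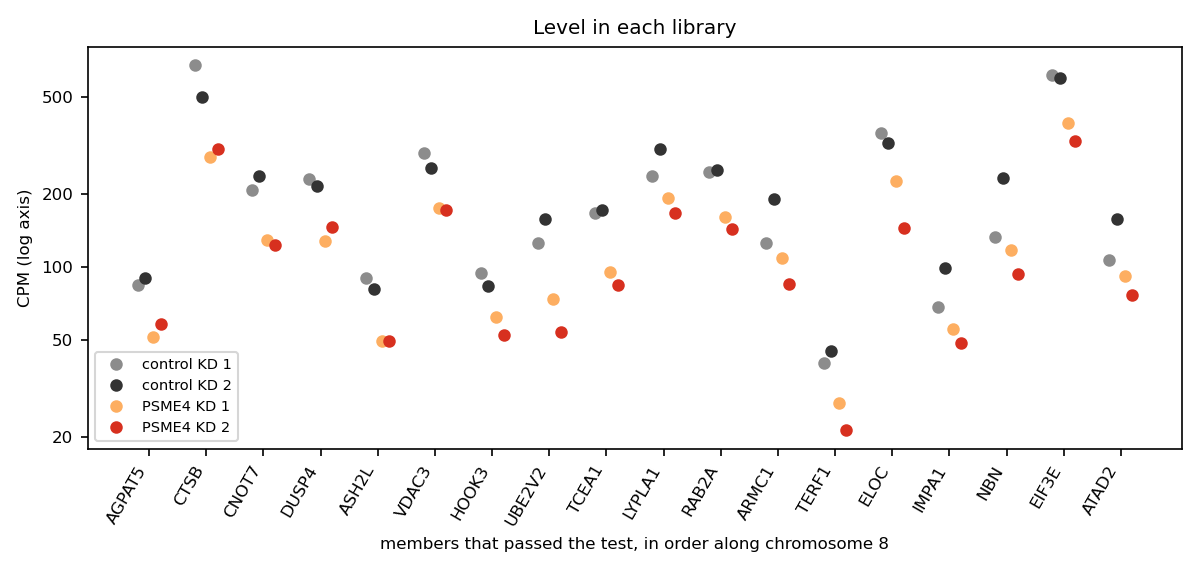
CPM on a log axis in each of the 4 libraries for the 18 members past the threshold, in order along chromosome 8. In each gene both control KD points lie above both PSME4 KD points, from 674 and 500 against 283 and 306 CPM for CTSB to 40.2 and 45 against 27.5 and 21.3 CPM for TERF1.

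Split by position, the short arm members had a median log2 fold change of -0.51, or 1.43-fold lower, with 22 of 24 below 0 and 7 called lower. Groups did not overlap for 17 of these 24 genes, all lower in the knockdown. Proximal long arm members had a median of -0.41, or 1.33-fold lower, with 24 of 30 below 0 and 11 called lower. On that segment 19 were lower without overlap and 3 were higher without overlap (PRKDC, TRAM1 and EXT1). Of the 5 distal members 2 were below 0, the median was 0.16, and edgeR called none of them, with 1 (PUF60) at an unadjusted p under 0.05; DESeq2 and limma voom also called 0. PTK2 was lower without overlap, and NDRG1 and AGO2 were higher without overlap. Over all tested genes, 28.4% were lower and 26.7% higher without overlap, and edgeR called 6.00% lower and 4.56% higher. With only 5 distal members, their counts cannot be told apart from those shares.

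Because only 5 members lie on the distal long arm, the other tested genes of chromosome 8 give the fuller picture of each segment. On the short arm, 140 other genes had a median of -0.31, with 101 below 0, 20 called lower and 2 higher. On the proximal long arm, 202 other genes had a median of -0.49, with 165 below 0, 61 called lower and 1 higher. On the distal long arm, 76 other genes had a median of 0.01, with 37 below 0, 0 called lower and 3 called higher; 6 were lower at an unadjusted p under 0.05, and DESeq2 and limma voom also called 0 lower. Without overlap of the groups, 80 of the 140 short arm genes were lower and 16 higher. The same counts were 130 and 13 of the 202 proximal genes, and 16 and 17 of the 76 distal genes. In windows of 10 Mb, the medians of all tested genes lay between -0.68 and -0.23 in each of the 13 windows below 130 Mb. The next window had a median of -0.08 over 10 genes, and the last, from 140 Mb, a median of 0.05 over 71 genes.

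Members on either side of a boundary are given here without a test. HOOK3, the last short arm member, was at -0.63, and PRKDC, the first on the long arm, at 0.24. MYC (127735434 to 127742951), the last member below 130 Mb, was at -0.02, and ASAP1 (130052104 to 130443674), the first beyond, at -0.09, so the members next to the distal boundary differ little from each other. Between them lie 2 other tested genes with opposite values, PVT1 at 0.39 (SE 0.23, not called) and FAM49B at -0.66 (SE 0.19, called lower). Just before MYC, CCAT1 was at 0.36 and CASC8 at 0.07, neither called. These 4 genes are no members and were chosen after their values were seen. Over all 38 tested genes that start from 120 to 130 Mb, MYC among them, the median was -0.44, with 27 below 0.

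All tested genes of chromosome 8 had a median of -0.35 over 477 genes, with 351 below 0. Among the other chromosomes with at least 30 tested genes, the lowest median was -0.16, on chromosome 13, and the highest 0.23, on chromosome 19. The median over chromosome 8 thus lay below that of every other chromosome compared. Its distal genes near 0 are part of that median. These chromosomes also differ in base composition, with a median GC content of transcripts of 42.1% on chromosome 13 and 58.7% on chromosome 19, against 44.9% on chromosome 8.

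**Figure D3:**
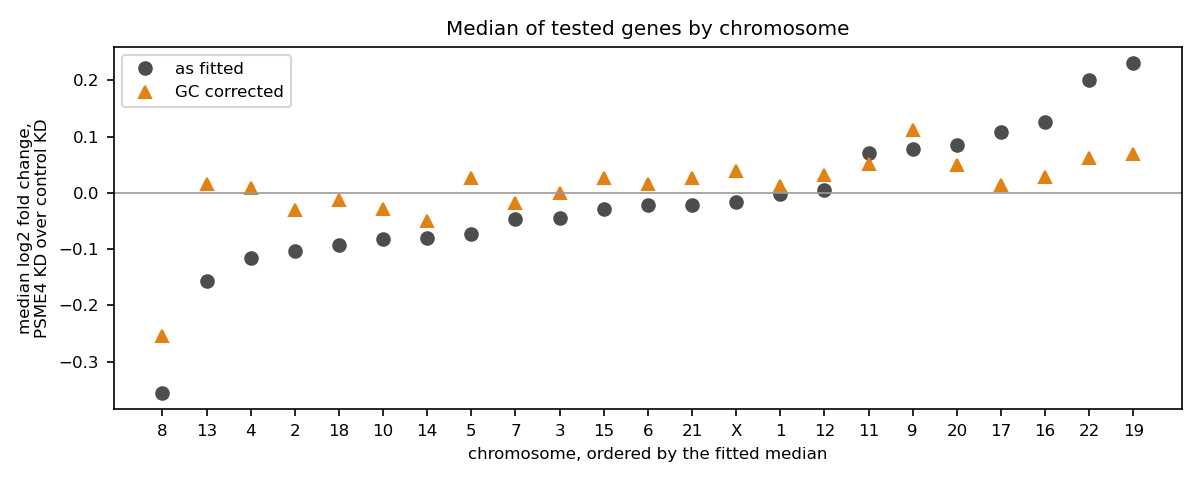
Median over tested genes of the log2 fold change, by chromosome (vertical axis), as fitted (circles) and with GC correction (triangles), with chromosomes ordered by the fitted median. Chromosome 8 is lowest on both scales, at -0.35 and -0.25, and the others range from -0.16 to 0.23 as fitted and from -0.05 to 0.11 with the correction.

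GC content moved with the log2 fold change across the whole table, at r = 0.33 and rho = 0.40 over 12686 genes outside chromosome 8, which share the same 4 libraries. Across the 59 members r was 0.40 and rho 0.36. Members were AT-rich, with a median GC content of 42.3% against 47.7% for all tested genes, and the distal non-member genes were GC-rich at 62.4%. Outside chromosome 8, the median log2 fold change was -0.24 for genes under 42% GC, -0.03 for those from 42% to 50% and 0.22 for those above. In the same classes, short arm genes of chromosome 8 were at -0.40, -0.34 and -0.18, and proximal long arm genes at -0.60, -0.34 and -0.39. In each GC class these chromosome 8 medians were lower than outside the chromosome. Distal genes were at -0.24 in the AT-rich class, which held only 5 genes, beside -0.24 outside the chromosome. In the middle class 13 distal genes were at 0.02 beside -0.03 outside. In the GC-rich class, which held 61 distal genes, they were at 0.11 beside 0.22 outside.

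With a GC trend removed from each library, the member median moved from -0.41 to -0.25, with 42 of 59 below 0. By segment the member medians became -0.30, -0.21 and 0.03, and those of the other genes -0.29, -0.34 and -0.05. Among the 76 other distal genes, 47 were then below 0, beside 37 as fitted. Of the 18 members, 8 still passed (CTSB, DUSP4, ASH2L, VDAC3, UBE2V2, TCEA1, TERF1 and ELOC), against 5.18% of all genes lower in that fit. TRAM1 then passed as higher, at a log2 fold change of 0.68, against 4.15% of all genes higher. The 10 members that lost the call include CNOT7 (-0.48), NBN (-0.48), EIF3E (-0.50) and RAB2A (-0.47), still below 0. CTSB, the most GC-rich called member at 52.8%, went from -0.99 to -1.13.

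**Figure D4:**
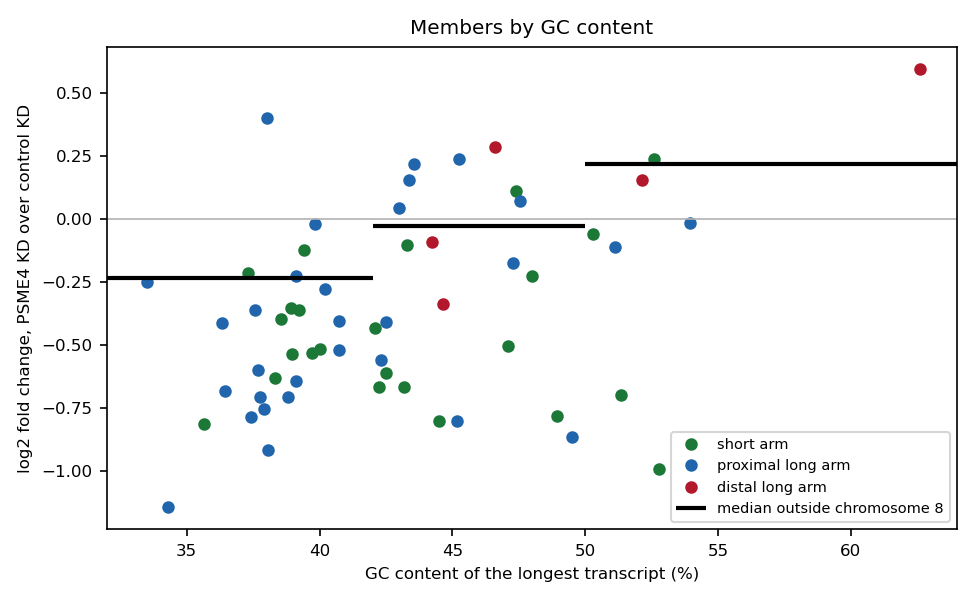
GC content of the longest transcript in percent (horizontal axis) against the log2 fold change of PSME4 KD over control KD (vertical axis) for the 59 members, coloured by segment, with black lines at the medians of genes outside chromosome 8 in each GC class. The members tend to lie lower where GC content is lower, at a median of -0.52 for the 28 under 42% GC and of -0.04 for the 8 above 50%.

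Single libraries were compared through a score, the median over genes of the log2 CPM deviation from each gene's mean over the 4 libraries. Short arm members scored 0.15 and 0.26 in the control libraries and -0.20 and -0.26 in the knockdown libraries. Proximal long arm members scored 0.06 and 0.36 in control and -0.14 and -0.28 in the knockdown. On both segments the groups were apart, but the control libraries differed by 0.31 on the proximal long arm and by 0.11 on the short arm. Distal members scored -0.06, -0.08, 0.01 and 0.02 in the same order.

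With GC correction the control libraries scored 0.04 and 0.19 on the proximal long arm and 0.15 and 0.15 on the short arm, and the knockdown libraries -0.08 and -0.19, and -0.13 and -0.17. The 202 other proximal long arm genes then scored 0.17 and 0.16 in control and -0.10 and -0.20 in the knockdown. The control libraries thus lay closer together after the correction in both sets, and the groups stayed apart. With the correction the 76 other distal genes scored 0.07 and 0.04 in control and -0.03 and -0.03 in the knockdown. As fitted their scores were 0.12 and -0.14 against 0.04 and 0.01. The 5 distal members scored -0.11 and 0.03 against 0.06 and -0.08 with the correction. The difference between proximal long arm and short arm members in their knockdown effect was 0.01 on the score as fitted. It is given as a value only, since an exact permutation test of 2 libraries against 2 cannot go below p = 0.33.

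**Figure D5:**
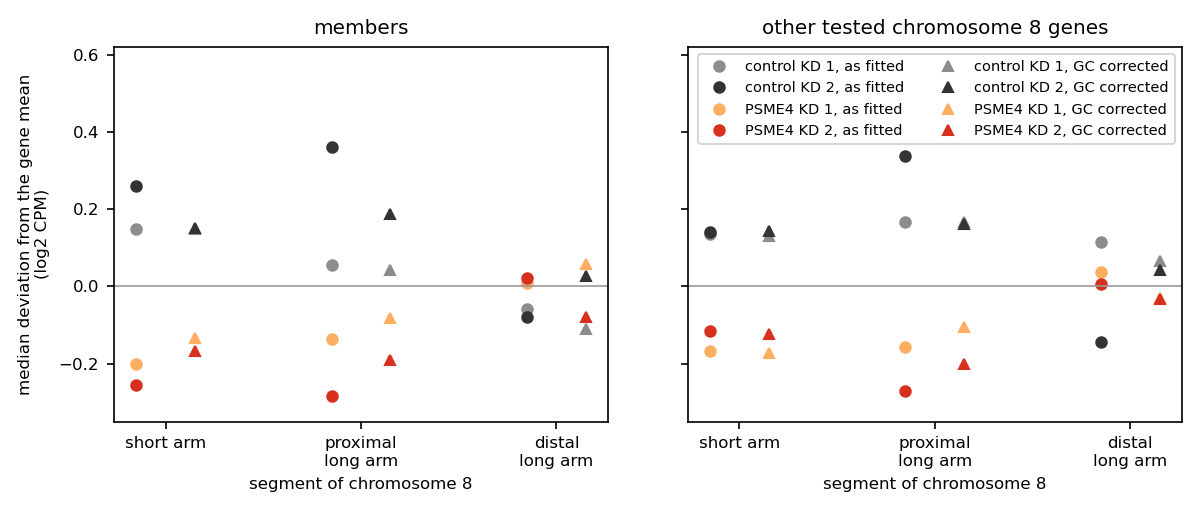
Score of each library (vertical axis, median log2 CPM deviation over the genes) by segment, for members (left) and for the other chromosome 8 genes (right), as fitted (circles) and with GC correction (triangles). Control KD points lie above PSME4 KD points on the short arm and the proximal long arm. For the short arm members as fitted they lie at 0.15 and 0.26 against -0.20 and -0.26. The distal members as fitted lie between -0.08 and 0.02. With GC correction the other distal genes lie at 0.07 and 0.04 in control KD and at -0.03 and -0.03 in PSME4 KD.

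Subunits and relatives of the members that are encoded on other chromosomes were read beside them, from lists of 124 genes of which 123 were tested. Their median log2 fold change was -0.06, with 68 below 0, 2 called lower and 4 called higher, beside 6.00% and 4.56% of all tested genes. The end-joining protein XRCC4 was at 36.2 and 39.7 CPM in control and 21.1 and 17.1 CPM in knockdown libraries, a log2 fold change of -0.99 (SE 0.22). EIF3J, a loosely bound eIF3 subunit, was at 40.4 and 31.9 CPM against 23.9 and 16.1 CPM, a log2 fold change of -0.85 (SE 0.23). Of the 8 break repair partners 7 were below 0, while of the 10 eIF3 partners 8 were above 0. The members set beside these lists were NBN (-0.79) and PRKDC (0.24), and EIF3E (-0.75) and EIF3H (-0.28). The 4 genes called higher included the methyltransferases KMT2C (0.99, SE 0.22) and KMT2B (0.83, SE 0.25). The others were the CCR4-NOT subunit CNOT3 (0.82, SE 0.25) and the Integrator subunit INTS3 (0.68, SE 0.21). With GC correction, XRCC4 (-0.69), KMT2C (1.05) and INTS3 (0.59) kept the call, and EIF3J (-0.63), KMT2B (0.62) and CNOT3 (0.56) lost it. Each of the 6 lost it when any 1 library was left out.

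Set beside its own complex, ASH2L was at -0.78 while 9 other COMPASS genes had a median of 0.49. EIF3E and EIF3H were at -0.75 and -0.28, and 10 other eIF3 genes had a median of 0.18. CNOT7 was at -0.82 and 10 other CCR4-NOT genes at a median of -0.13; RAD21 was at -0.41 and 9 other cohesin genes at -0.09. In these 4 complexes the members had lower values than the median of their partners as fitted. ELOC was at -0.87 beside a median of -0.32 for 6 elongin partners, and ATP6V1B2 at -0.52 beside -0.33 for 5 other V1 subunits of the V-ATPase, all 5 below 0. PRKDC at 0.24 stood above the median of -0.23 for 8 break repair partners, while NBN at -0.79 lay below it. TNKS at -0.10 stood above the median of -0.26 for 6 telomere genes, and TERF1 at -0.80 lay below it. AGO2 was at 0.28 beside 0.10 for 3 other Argonautes. Also below their partners were VDAC3 (-0.67 beside -0.14), YWHAZ (-0.52 beside -0.24), VPS37A (-0.36 beside -0.23) and RB1CC1 (-0.36 beside -0.04). So were ELP3 (-0.23 beside 0.25) and COPS5 (-0.23 beside -0.03). IKBKB at -0.06 lay between its only 2 listed partners, which were at -0.61 and 1.15. The higher of these partners was at only 0.69 to 2.04 CPM. TAF2 was at -0.02 beside -0.05 for 13 TFIID genes. Integrator was split as fitted, with INTS10 at -0.51 and INTS9 at 0.24 beside a median of 0.07 for 11 subunits on other chromosomes. INTS8, a proximal long arm gene that is no member, was at -0.65 (SE 0.20) and passed the threshold. None of these differences between a member and its partners was tested.

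GC correction moved several of these values. The COMPASS median became 0.28, that of elongin -0.17, of CCR4-NOT 0.0058 and of cohesin 0.0939. On the same scale ASH2L was at -0.82, ELOC at -0.91, CNOT7 at -0.48, RAD21 at -0.20 and EIF3H at -0.08, and AGO2 at 0.30 lay close to the Argonaute median of 0.28. PRKDC was at 0.29 and NBN at -0.48 beside -0.19. INTS9 at 0.09 and INTS10 at -0.50 then both lay below the Integrator median of 0.14. ATP6V1B2 was at -0.32 beside -0.27 for the V-ATPase. VPS37A (-0.12 beside -0.30), RB1CC1 (-0.07 beside -0.21) and COPS5 (-0.02 beside -0.04) then lay above their partner medians.

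The 13 partner lists in which edgeR called 0 genes as fitted held 75 genes. Of these genes, 13 were lower and 4 higher at an unadjusted p under 0.05, and DESeq2 and limma voom also called 0. With GC correction, TAF4 of TFIID (-0.67) and ATP6V1F of the V-ATPase (-0.64) were called lower. MYC was at -0.02, and of 9 partners of the MYC network edgeR called 0, with 1 at an unadjusted p under 0.05 and 0 by DESeq2 and limma voom. Of 19 tested MYC target genes on other chromosomes the median was -0.15, and 1 was called lower. That gene, the mitochondrial chaperonin HSPE1, was at 200 and 129 CPM in control and 78.0 and 37.0 CPM in knockdown libraries, a log2 fold change of -1.52 (SE 0.26). Of the 19 genes limma voom called 1 lower and DESeq2 called 0, so HSPE1 was not called by DESeq2. With GC correction the median of the 19 was -0.08, and 2 were called lower, HSPE1 (-1.57) and ODC1 (-0.58).

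With 2 libraries per group, the calls rest on all 4 libraries. Without the first or the second control library, or without the first knockdown library, 0 of the 59 members were called lower, beside 0.271%, 0.448% and 0.189% of all tested genes. Without the second knockdown library, CTSB alone was lower, beside 0.648% of all genes, and PUF60 was called higher at a log2 fold change of 1.07, beside 1.40%. The fold changes of the 18 called members stayed below 0 in each of these 4 fits. For 12 of the 18 the value moved by less than 1.5 times in each fit; CTSB ranged from -1.19 to -0.76, TCEA1 from -1.0 to -0.80 and RAB2A from -0.79 to -0.60. The other 6 lie on the proximal long arm. Without the second control library, NBN was at -0.33, ATAD2 at -0.33, ARMC1 at -0.37, IMPA1 at -0.39 and LYPLA1 at -0.40. ELOC was at -0.55 without the second knockdown library.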

How the data were processed

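Sample titles gave the group and number of each library. The submitters' processing notes list cutadapt, STAR, DESeq2 and hg38; versions, counter, strand setting and annotation are not stated there. The authors' deposited table holds raw counts per gene, signal values (counts over a size factor for the library) and regularised log2 values, per the file headers. It also holds the authors' own log2 fold change and p-value; the largest count in each row was at least 6, so low rows had been removed, which leaves the fold changes of kept genes as they were.

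The count columns went into edgeR 4.0.16 (R 4.3.3): filterByExpr, TMM scaling, and glmQLFit and glmQLFTest over the 4 libraries, with group alone as a term (2 residual degrees of freedom) and Benjamini-Hochberg adjustment over 13497 genes and a threshold of 0.05. The script was tested on simulated data. Each SE is the log2 fold change over the root of its F value. CPM values are TMM-scaled, except those of the cell type markers, which are scaled to total counts. The biological coefficient of variation was 15.3%. Positions come from RefSeq on GRCh38.p14 (14474 genes through their symbol, 339 through an older one, 224 without a match), and GC content from the longest GENCODE 29 transcript. GC correction subtracts a lowess trend (span 0.4) from each library; 97.5% of tested genes had a value. Counting without a known strand setting cannot separate overlapping genes, and 35 of the 59 members overlap another RefSeq gene.

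The members and all gene lists were chosen with earlier results of these data known. The rule for named genes allowed every member, with values per library for members past the threshold, for the lowest and highest of each segment and for MYC, partners past the threshold, and the genes beside each position limit; PABPC1, MSRA, PVT1, FAM49B, CCAT1 and CASC8 were added after their values were seen. Whole chromosomes took the place of arms for other chromosomes, since centromere positions were not used here. Alternatives were DESeq2 size factors, library size alone, TMM without chromosome 8 genes, DESeq2 1.42.0, limma voom (limma 3.58.1), 2 other count filters, GC correction, a replicate block, a threshold of 0.10 and each library left out.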

Additional observations from a re-analysis of the deposited data

How the results depend on the processing

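Leaving out each library in turn gave 0 to 1 members lower, 0 to 1 higher and 0 partners in either direction; medians ranged over -0.53 to -0.29 for all members, -0.55 to -0.34 for short arm members, -0.62 to -0.26 for proximal and 0.0334 to 0.24 for distal long arm members, and, for other genes, -0.60 to -0.37 on the proximal and -0.0260 to 0.23 on the distal long arm. The difference between the segments ranged from -0.0799 (without the first control library) to 0.15. GC correction gave 8 lower and 1 higher member, 2 higher partners, and medians of -0.25 (all members), -0.30, -0.21 and 0.0313 (short arm, proximal and distal members) and -0.34 (other proximal genes). GC correction with the replicate block gave 10 lower and 1 higher member, 7 lower partners, and medians of -0.25, -0.29, -0.20, 0.0292 and -0.35 for the same sets. Same-numbered libraries did not deviate together (correlation -0.04 over 8748 genes), and the replicate block alone gave 18 members lower and 0 higher. With library size as the only scaling, the distal members had a median of 0.20 and the other short arm genes -0.27; a threshold of 0.10 gave 6 lower partners. Of the 18 called members, 17 kept the call under DESeq2, limma voom, library size scaling and no filter, and 18 with DESeq2 size factors, TMM without chromosome 8 genes and a minimum of 50 counts. The score has no value under DESeq2, limma voom or the block. The cause of these changes was not tested, except that each left-out library leaves 1 lone sample, assumed to vary like the other group, and fewer degrees of freedom. Depth limits low genes such as MSRA.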
